A study of Homo sapiens with 8 samples.

Results

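The aldo-keto reductases described here are 7 human genes, namely AKR1C1, AKR1C2 and AKR1C3, AKR1B1 and AKR1B10, AKR1A1, and AKR7A2, of 20263 genes in the expression table. They were chosen by symbol, with their values in the comparison of EB with DMSO already known, so those values are given as a description, and the calls of the fit over all genes are counted once, beside the share over all genes, and are no test of these genes. The TPM of the 3 AKR1C paralogs were also summed, because their transcripts share sequence. All libraries came from PANC-1, a line of human cells long established from a ductal pancreatic carcinoma. The cells were kept for 24 h with the vehicle dimethyl sulfoxide (DMSO) or with 10 μM eupalinolide B (EB), a sesquiterpene lactone from Eupatorium lindleyanum. Each group had 4 libraries, described in the methods as biological replicates, although the same methods also speak of triplicates, and both groups share the 1 cell line and the time in culture with the agent or vehicle. The values are TPM, a gene's share of all transcripts of its library once gene length is accounted for, scaled to a fixed total, so levels of different genes can be compared within a library. The table gives no read counts, so the depth behind each value is unknown.

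Aldo-keto reductases are soluble enzymes that use NADPH to reduce aldehydes and ketones to alcohols. Their substrates include sugars, steroid hormones, prostaglandins, and the reactive aldehydes that form when lipids are oxidized. The AKR1C genes lie side by side in a cluster and encode enzymes that act on steroids and prostaglandins. Several family members are transcribed under the control of NRF2, a factor that KEAP1 holds back until electrophiles or oxidants modify KEAP1. They are also studied in cancer for the carbonyl-containing drugs they reduce.

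The 3 AKR1C genes are neighbours on chromosome 10 of hg38 (GENCODE release 44). AKR1C1 (ENSG00000187134) runs from 4963253 to 4983283 on the plus strand, AKR1C2 (ENSG00000151632) from 4987775 to 5018031 on the minus strand, and AKR1C3 (ENSG00000196139) from 5035354 to 5107686 on the plus strand. Each has 9 exons and a coding length of 969 nucleotides. The coding sequences of AKR1C1 and AKR1C2 were identical at 98.04% of positions and differed at 19. AKR1C3 was identical to AKR1C1 at 91.43% and to AKR1C2 at 91.02% of positions. The values of the single AKR1C genes below rest on telling the paralogs apart, over more sequence than is shown here. The 60 bases of coding sequence in which AKR1C1 and AKR1C2 differ most are given as an example. They are coding bases 103 to 162, all in exon 2, written on the coding strand from hg38, at chr10:4965932-4965991 for AKR1C1, chr10:5001604-5001663 for AKR1C2 and chr10:5096428-5096487 for AKR1C3. Capitals mark bases that differ from AKR1C1, 10 in AKR1C2 and 7 in AKR1C3.
AKR1C1: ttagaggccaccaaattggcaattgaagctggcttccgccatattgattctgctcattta
AKR1C2: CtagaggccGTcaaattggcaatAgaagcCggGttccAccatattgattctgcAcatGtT
AKR1C3: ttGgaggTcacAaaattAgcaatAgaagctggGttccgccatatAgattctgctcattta
No other 60-base window of the coding sequence holds more differences between AKR1C1 and AKR1C2. Of all 50-base windows of the AKR1C1 coding sequence, 54.3% were found letter for letter in another aldo-keto reductase, as were 57.1% of those of AKR1C2 and 23.0% of those of AKR1C3. With windows of 150 bases these shares were 4.63%, 7.32% and 2.68%. Over the whole canonical transcripts the shares were 22.7%, 47.3% and 18.6% with windows of 50 bases. With windows of 150 bases they were 7.91%, 17.2% and 2.12% over the whole transcripts. The read length was not given in the sources used here, and neither was the handling of reads that match several genes, so the split of the AKR1C signal into single genes is uncertain, and the sum is given beside it.

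The other 4 genes lie elsewhere. AKR1B1 (ENSG00000085662) is on the minus strand of chromosome 7 between 134442356 and 134459284, and AKR1B10 (ENSG00000198074) follows it on the plus strand between 134527567 and 134541412. AKR1A1 (ENSG00000117448) is on the plus strand of chromosome 1 between 45550543 and 45570049, and AKR7A2 (ENSG00000053371) on its minus strand between 19303965 and 19312144. No 50-base window of AKR1B1 or AKR1A1 was found in another aldo-keto reductase, whereas 10.2% of those of the AKR7A2 coding sequence were found in AKR7L. The AKR1B1, AKR1A1 and AKR7A2 coding sequences aligned with that of AKR1C1 at 59.4%, 54.73% and 46.89% identity, so their values do not share this ambiguity with AKR1C.

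AKR1C1 stood far above its control level with EB, while the EB values of its closest paralog AKR1C2 lay within the control range and those of AKR1C3 below it. AKR1C1 encodes a hydroxysteroid dehydrogenase that inactivates progesterone. Its TPM was 5.20, 5.22, 4.81 and 3.61 in the 4 DMSO libraries and 39.4, 28.2, 32.1 and 35.2 in the 4 EB libraries. Every EB library was above every DMSO library, and the lowest EB value was several times the highest DMSO value. The mean was 4.71 ± 0.759 (SD, n = 4) in DMSO and 33.7 ± 4.76 (SD, n = 4) in EB libraries, a ratio of 7.16. On the log2(TPM + 1) scale, which understates the change of low genes, the fold change was 2.60 (standard error 0.15, from the limma fit over all genes). It was the 6th largest of the 11725 genes tested, which are those that reached 1 TPM in 4 or more libraries. AKR1C1 was the 9751st most abundant gene by mean TPM with DMSO and the 3788th with EB.

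AKR1C2 encodes an enzyme that inactivates dihydrotestosterone. Its TPM was 1.15, 2.03, 0.950 and 1.70 with DMSO and 1.59, 1.72, 1.42 and 1.67 with EB. The EB libraries lay inside the range of the DMSO libraries. The means were 1.60 ± 0.130 (SD, n = 4) and 1.46 ± 0.499 (SD, n = 4), and the log2 fold change was 0.10 (standard error 0.16), smaller than its own error.

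AKR1C3 encodes an enzyme that makes testosterone from androstenedione and prostaglandin F from other prostaglandins. Its TPM was 2.06, 2.10, 1.11 and 1.33 with DMSO and 0.326, 0.445, 1.05 and 0.494 with EB. All EB libraries were below all DMSO libraries, but EB replicate 3 came close to the lowest of them. The means were 0.579 ± 0.322 (SD, n = 4) and 1.65 ± 0.506 (SD, n = 4), a ratio of 0.351 and a log2 fold change of −0.75 (standard error 0.18). The gene passed the filter on low values through its DMSO libraries, since 1 of the 4 EB libraries reached a TPM of 1.

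**Figure D1:**
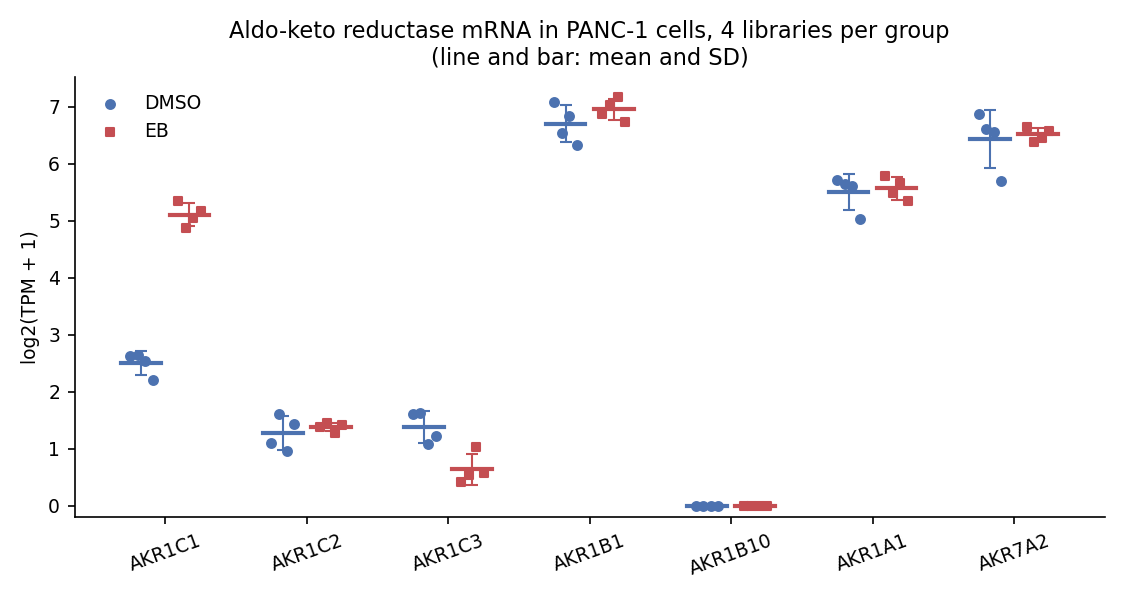
Level of the 7 aldo-keto reductases in each library as log2(TPM + 1), with circles for the 4 DMSO libraries and squares for the 4 EB libraries (line, mean, and bar, SD). AKR1C1 is the gene whose EB libraries all lie above its DMSO libraries, AKR1C3 lies lower with EB, the groups overlap for AKR1C2, AKR1B1, AKR1A1 and AKR7A2, and AKR1B10 is listed at 0 throughout.

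The AKR1C sum is not free of the way reads were divided among the 3 genes. The canonical transcripts of AKR1C1, AKR1C2 and AKR1C3 are 6543, 3215 and 1186 nucleotides long. A read counted for a shorter gene therefore adds more TPM to the sum. The handling of reads that match several genes bears on the sum too and is unknown. The sum was 8.40, 9.36, 6.87 and 6.63 TPM with DMSO and 41.3, 30.3, 34.6 and 37.3 TPM with EB, with no overlap. The means were 35.9 ± 4.63 (SD, n = 4) and 7.81 ± 1.29 (SD, n = 4), a ratio of 4.59 and a log2 fold change of 2.07. As the deposited TPM split the reads, AKR1C1 carried the rise of the sum in every EB library. AKR1C1 took 60.5% ± 7.12 (SD, n = 4) of the sum with DMSO, from 54.4% to 70.0%, and 93.8% ± 1.20 (SD, n = 4) with EB, from 92.9% to 95.4%. The share of AKR1C2 was 18.7% ± 5.95 with DMSO and 4.53% ± 0.800 with EB, and that of AKR1C3 was 20.8% ± 3.59 and 1.65% ± 0.967 (SD, n = 4 each). In the deposited TPM, the sum of the 3 genes thus went from a mixture with AKR1C1 as the largest part to nearly AKR1C1 alone. These shares rest on the uncertain split of reads and on AKR1C2 and AKR1C3 values near 1 TPM. Within a library, the ratio of AKR1C1 to AKR1C2 was between 2.13 and 5.06 with DMSO and between 16.4 and 24.8 with EB. If the split holds, such a ratio within a library shows that the genes changed unequally, and does not show that AKR1C2 stayed the same.

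**Figure D2:**
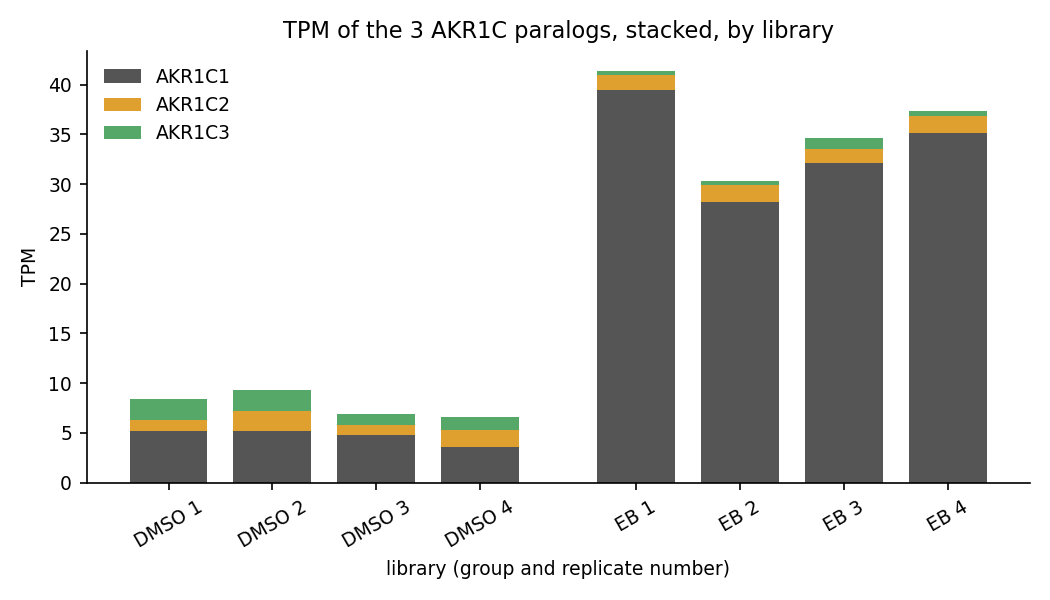
TPM of AKR1C1, AKR1C2 and AKR1C3, stacked, in each of the 8 libraries, on an axis that starts at 0. The stacks reach 6.63 to 9.36 TPM with DMSO and 30.3 to 41.3 TPM with EB, and the difference lies in the AKR1C1 segment.

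The aldose and aldehyde reductases were far more abundant than AKR1C1 in the DMSO libraries, and their levels with EB overlapped those with DMSO. AKR1B1 encodes aldose reductase, which turns glucose into sorbitol in the first step of the polyol pathway. Its TPM was 134.5, 92.5, 113.9 and 79.8 with DMSO and 116.5, 130.0, 142.6 and 105.7 with EB. The highest DMSO library exceeded 3 of the 4 EB libraries, so the groups were interleaved. The mean was 105 ± 24.1 (SD, n = 4) in DMSO and 124 ± 16.0 (SD, n = 4) in EB libraries, and the log2 fold change was 0.25 (standard error 0.18).

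AKR1A1 encodes aldehyde reductase, which acts on a broad range of aldehydes and in sugar acid metabolism. Its TPM was 51.5, 48.8, 47.8 and 31.7 with DMSO and 54.3, 43.8, 49.6 and 39.5 with EB, with a log2 fold change of 0.07 (standard error 0.18). AKR7A2 encodes an enzyme that reduces succinic semialdehyde and the dialdehyde form of aflatoxin. Its TPM was 116.2, 96.1, 93.3 and 51.2 with DMSO and 99.0, 82.4, 86.9 and 94.1 with EB, with a log2 fold change of 0.08 (standard error 0.23). For both genes the groups overlapped, and the lowest of the 8 values was in DMSO replicate 4. Their means were 46.8 ± 6.52 against 45.0 ± 8.98 for AKR1A1 and 90.6 ± 7.38 against 89.2 ± 27.3 for AKR7A2 (SD, n = 4 each).

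AKR1B10, which reduces retinal and is known for high levels in the intestine and in several carcinomas, was listed at 0 in all 8 libraries and was not tested. A value of 0 in a table without counts can also come from an estimate that failed, so it is not read as absence of the transcript. Of its 50-base coding windows, 19.8% were found in AKR1B15, a neighbouring gene that was also listed at 0 in all libraries.

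Of the 7 genes, 6 passed the filter on low values. AKR1C1 was called higher and AKR1C3 lower at a limma adjusted p under 0.05, which 40.3% of all genes tested passed, 15.2% of all genes higher with EB and 25.1% lower. The libraries did not overlap for the same 2 genes, which was the case for 36.8% of genes tested (16.6% higher and 20.3% lower with EB). With an absolute log2 fold change above 1 required as well, AKR1C1 was the 1 gene called of the 6 tested, against 8.97% of all genes tested in either direction and 2.47% in the higher direction. Since the genes were chosen from this contrast, and AKR1C3 passed the filter through the group in which it is higher, nothing is read from these counts. The median log2 fold change over all genes tested was −0.11.

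The order of the levels changed at its lower end. With DMSO the means fell from AKR1B1 through AKR7A2, AKR1A1, AKR1C1, AKR1C3 and AKR1C2 to AKR1B10. The ranges of AKR1B1 and AKR7A2 overlapped, as did those of AKR7A2 and AKR1A1 and those of AKR1C3 and AKR1C2. AKR7A2 was nevertheless above AKR1A1 within each of the 4 libraries, whereas AKR1B1 was above AKR7A2 and AKR1C3 above AKR1C2 in 3 of 4. With EB, AKR1C2 stood before AKR1C3, and no neighbours in the order overlapped. AKR1C1 kept the fourth place, and its mean was 4.71 TPM against 45.0 TPM for AKR1A1 with DMSO, and 33.7 TPM against 46.8 TPM with EB. The AKR1C genes together made up 3.26% ± 0.690 of the TPM of the 7 genes with DMSO and 12.1% ± 1.51 with EB (SD, n = 4 each). The total over the 7 genes was 247 ± 58.6 TPM, from 169.3 to 310.6, with DMSO and 297 ± 18.3 TPM, from 276.6 to 313.7, with EB, and these ranges overlapped.

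DMSO replicate 4 held the lowest value of its group for AKR1C1, AKR1B1, AKR1A1 and AKR7A2. In that library mitochondrially encoded genes took 39.0% of the TPM, against 17.01% to 21.1% in the other DMSO libraries and 11.6% to 20.3% in the EB libraries. When these genes were removed and the remaining TPM rescaled to the same total, AKR1C1 had means of 6.22 ± 0.302 in the DMSO and 39.6 ± 5.72 in the EB libraries (SD, n = 4 each). On that scale the AKR1C1 values of the 4 DMSO libraries lay between 5.91 and 6.62, closer to each other than before. AKR7A2 was at 116 ± 23.4 with DMSO and 106 ± 10.3 with EB, and AKR1A1 at 59.1 ± 4.83 and 54.7 ± 5.41 (SD, n = 4 each), so that both were slightly lower with EB, still with overlap. AKR1B1 was at 139 ± 19.1 and 145 ± 15.1 (SD, n = 4 each). Of the EB libraries, replicate 4 had the largest mitochondrial share (20.3%). In the TPM as deposited it held the lowest EB value for AKR1B1 and AKR1A1, but not for AKR1C1 or AKR7A2. As these are bulk samples, fewer cells that express a gene and less of its RNA per cell cannot be told apart.

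Fold changes over all genes went with the length of the transcript, and the 6 detected genes differ widely in it. When all genes tested were divided into 10 length classes of about equal size, the class of the shortest canonical transcripts (207 to 1219 nucleotides) had a median log2 fold change of 0.41 and that of the longest (7315 to 34626 nucleotides) one of −0.54. AKR1C1, at 6543 nucleotides, belongs to a class with a median of −0.44, in which 4.19% of genes were called higher and 42.6% lower. Its fold change had the opposite sign to that median. AKR1C3, at 1186 nucleotides, belongs to the shortest class, in which 42.2% of genes were called higher and 7.18% lower, and it too went against that class's median. AKR1B1 (1361 nucleotides), AKR7A2 (1360) and AKR1A1 (1407) belong to a class with a median of 0.24, and AKR1C2 (3215) to one with a median of −0.10. Once each library had been corrected for transcript length and GC content (the length and GC trend removed), the log2 fold change was 2.94 for AKR1C1, −1.14 for AKR1C3 and 0.13 for AKR1C2. Under the same removal it was −0.12 for AKR1B1 and −0.28 for both AKR1A1 and AKR7A2, a change of sign for these 3 genes. What gave rise to the length trend was not tested.

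**Figure D3:**
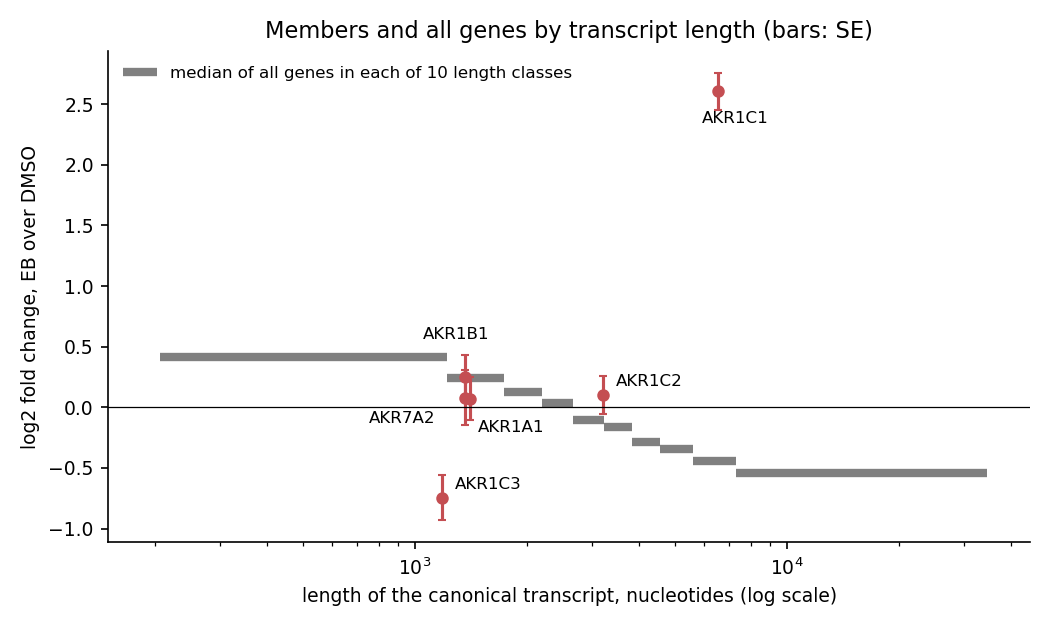
Log2 fold change of EB over DMSO against the length of the canonical transcript (log axis) for the 6 aldo-keto reductases tested (points, with standard errors), and the median of all genes in each of 10 length classes (grey lines). The grey lines descend from 0.41 to −0.54, AKR1C1 lies above the line of its class and AKR1C3 below, and the other genes lie nearer to theirs.

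The direction for AKR1C1, for the AKR1C sum and for AKR1C3 was the same under every alternative tried. The alternatives covered the pseudocount, the filter, the scaling between libraries, removal of mitochondrial genes, removal of the length and GC trend, an intensity trend, a replicate block and each library left out in turn. For AKR1C1 the log2 fold change lay between 2.50 and 2.68 with 1 library left out and between 2.17 and 2.94 otherwise. Its lower end came from taking the coding length in place of the transcript length for the AKR1C genes in the trend removal, an alternative added after seeing the data. For AKR1C3 it lay between −0.88 and −0.66 with 1 library left out and between −1.42 and −0.55 otherwise. The lower end came with a pseudocount of 0.1, with 3 of the 4 EB values below 1 TPM, and with a minimum of 5 TPM neither AKR1C2 nor AKR1C3 was tested. AKR1C2 ranged from −0.33 to 0.35 and changed sign. AKR1A1 and AKR7A2 also changed sign without DMSO replicate 4, at −0.09 and −0.16, and with mitochondrial genes removed, at −0.11 and −0.10.

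Scaling moved all genes together as well. The median over all genes was −0.28 with mitochondrial genes removed, −0.01 with median-ratio scaling and 0.02 with quantile normalization, against −0.11 for the TPM as deposited. Relative to the median of the same setting, AKR1C1 was at 2.71 with the TPM as deposited, 2.76 with mitochondrial genes removed and 2.77 with quantile normalization. AKR1C3 was at −0.64, −0.65 and −0.56 in the same order. AKR7A2 was at 0.19, 0.18 and −0.03, so its direction relative to other genes changed with quantile normalization too.

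**Figure D4:**
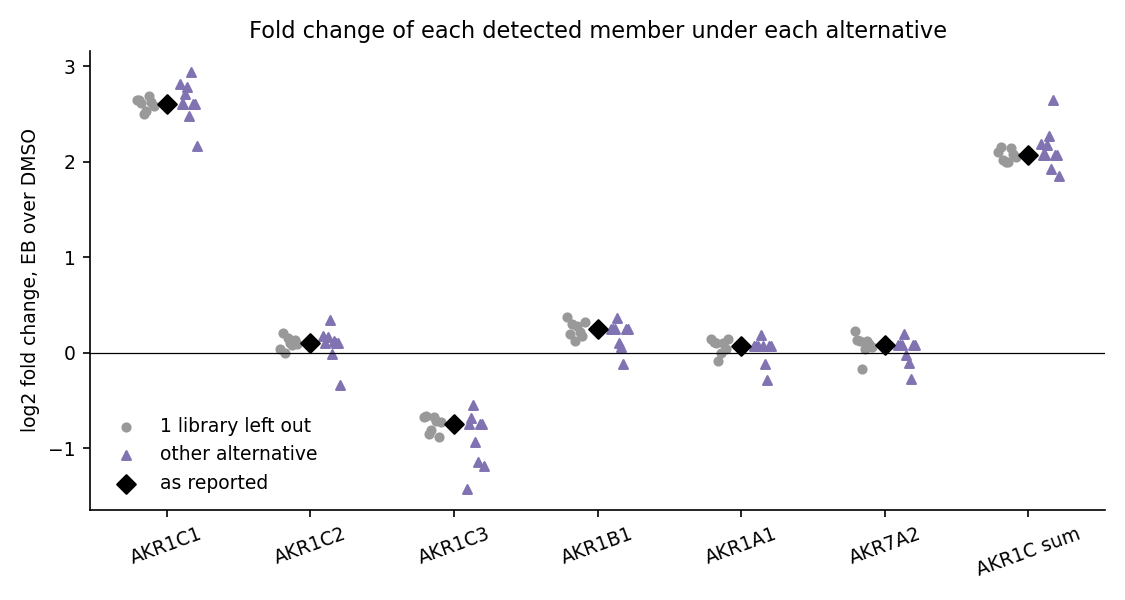
Log2 fold change of EB over DMSO for the 6 aldo-keto reductases tested and the AKR1C sum, as reported (diamonds), with 1 library left out (grey circles) and under the other alternatives (triangles). AKR1C1 and the AKR1C sum stay above 1.8 and AKR1C3 below −0.5, whereas AKR1C2, AKR1A1 and AKR7A2 fall on both sides of 0. AKR1B1 lies above 0 except with the length and GC trend removed, at −0.12.

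The promoters are shown because the sequence just before the starts of AKR1C1 and AKR1C2 is nearly the same. Their fold changes differed as the deposited TPM split the reads, a split that is uncertain. RefSeq (GRCh38.p14) gave promoters for 6 of the 7 genes; AKR1B10 is the missing entry. Over the 250 bases before the start, AKR1C2 aligned with AKR1C1 at 96.46% identity, with 1 mismatch and 8 gap columns. AKR1C3 aligned with AKR1C1 at 69.17% identity, with 50 mismatches and 32 gap columns. The last 120 bases before each start are given below on the coding strand of the gene. They are at chr10:4963295-4963414 (plus strand) for AKR1C1, chr10:5003858-5003977 (minus strand) for AKR1C2 and chr10:5094294-5094413 (plus strand) for AKR1C3. Capitals mark bases that differ from AKR1C1 or have no partner in it.
AKR1C1: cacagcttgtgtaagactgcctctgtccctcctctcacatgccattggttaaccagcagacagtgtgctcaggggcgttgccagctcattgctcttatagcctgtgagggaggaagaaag
AKR1C2: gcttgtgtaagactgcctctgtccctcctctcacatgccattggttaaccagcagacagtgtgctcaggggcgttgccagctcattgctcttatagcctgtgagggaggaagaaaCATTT
AKR1C3: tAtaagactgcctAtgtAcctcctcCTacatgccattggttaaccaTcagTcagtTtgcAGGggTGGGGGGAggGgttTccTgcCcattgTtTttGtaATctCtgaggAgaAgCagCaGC
AKR1C1 and AKR1C2 thus share this stretch shifted by a few bases. The motif CCAAT, searched on both strands, occurs once in the 250 bases of each of the 3 genes, on the reverse strand. It also occurs once before AKR1B1, on the forward strand, and not before AKR1A1 or AKR7A2. Of all 35116 RefSeq promoters, 32.0% hold it.

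The promoters of the abundant genes are of another kind. GC content was 35.6% to 40.8% in the 3 AKR1C promoters, which hold 0 to 2 CpG dinucleotides. It was 68.0% for AKR1B1, 60.4% for AKR1A1 and 79.2% for AKR7A2, with 28, 17 and 31 CpG, against a median of 58.0% and 11 CpG over all promoters. The core of the antioxidant response element, the DNA element that NRF2 binds, was searched as TGACNNNGC on both strands. It occurred 3 times in the 250 bases before AKR7A2 and in none of the other 5 genes, and in 10.9% of all promoters. The motifs TGANTCA and TATAAA, searched likewise and found in 6.57% and 10.7% of all promoters, occurred in none of the 6 genes.

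In the 5000 bases before the canonical start on hg38, the core TGACNNNGC occurred 3 times each for AKR1C1 and AKR1C2, once for AKR1C3, 4 times for AKR1A1, 10 times for AKR7A2, 2 times for AKR1B10 and not for AKR1B1. At this length 83.8% of all genes hold it, so its presence sets none of these genes apart. The stricter form TGACTCAGC, which contains TGANTCA, was found before 6.50% of genes and, among these 7, before AKR7A2 alone. Its sites are shown with 12 bases on each side, on the strand of the gene, with the motif in capitals. They start 607 bases before the gene (chr1:19312743-19312751, forward) and 1700 bases before it (chr1:19313836-19313844, reverse complement).
AKR7A2 at 607 bases: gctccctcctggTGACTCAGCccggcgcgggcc
AKR7A2 at 1700 bases: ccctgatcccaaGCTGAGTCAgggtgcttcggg
AKR7A2 held the most such matches, and AKR1C1 held no stricter match in this window. Whether the matches bear on the levels with EB was not tested. A match is a stretch of letters and not a measured binding site.

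No other aldo-keto reductase tested was called higher with EB. Of 10 further genes listed, 9 were in the table and 4 were tested. AKR1C8 was not analysed here. Of the 4, 0 were called higher by limma and 1 lower (0 higher and 2 lower at an unadjusted p under 0.05), against 15.2% and 25.1% of all genes tested, and with 4 genes nothing is read from these counts. Their median log2 fold change was −0.28 against −0.11 over all genes. AKR1E2, an anhydrofructose reductase encoded on the same arm of chromosome 10 (4786629 to 4848062, plus strand), fell from 11.0 ± 2.37 TPM (SD, n = 4), between 8.28 and 14.03, to 4.18 ± 0.481 TPM (SD, n = 4), between 3.72 and 4.61. Its log2 fold change was −1.19 (standard error 0.16, limma adjusted p = 0.00064), and it kept its direction and its call under all alternatives, from −1.51 to −0.90. AKR7A3, KCNAB2 and KCNAB3 had log2 fold changes of −0.40, −0.16 and −0.12 and did not pass the test. AKR7A3 passed it with mitochondrial genes removed (−0.55, limma adjusted p = 0.00896), with the length and GC trend removed (−0.78, adjusted p = 0.00277) and without DMSO replicate 4 (−0.48, adjusted p = 0.0329), and KCNAB2 without DMSO replicate 4 (−0.38, adjusted p = 0.0447). With quantile normalization KCNAB2 and KCNAB3 were at 0.066 and 0.19, a change of sign that did not pass the test. The KCNAB genes encode beta subunits of voltage-gated potassium channels, which have the fold of the family. AKR7L and KCNAB1 were below the filter, at means of 1.50 and 0.115 TPM with DMSO and 0.628 and 0.124 TPM with EB. AKR1C4, an enzyme of liver steroid metabolism, AKR1D1, a steroid reductase of bile acid synthesis, and AKR1B15 were listed at 0 in all libraries.

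Of 8 genes listed as regulators of NRF2, all tested, 1 was called higher and 1 lower at the level of RNA. That is 25% of the list, against 40.3% of all genes tested. SQSTM1, which encodes an adaptor that takes KEAP1 to autophagy, rose from 561 ± 37.7 TPM (SD, n = 4) to 755 ± 41.1 TPM (SD, n = 4), which is 0.43 on the log2 scale (limma adjusted p = 0.0145). With quantile normalization its log2 fold change was 0.16 and did not pass the test (limma adjusted p = 0.151). CUL3, the scaffold of the ubiquitin ligase that marks NRF2 for degradation, fell from 28.2 ± 2.77 to 21.5 ± 2.64 TPM (SD, n = 4 each), a log2 fold change of −0.38 (limma adjusted p = 0.0434). The CUL3 call was lost with any of 6 libraries left out (all but DMSO replicate 4 and EB replicate 2), with log2 fold changes from −0.40 to −0.32 (adjusted p = 0.0769 to 0.123), and with the length and GC trend removed at −0.05 (adjusted p = 0.799). NFE2L2, the gene of NRF2 itself, was at 35.6 ± 10.5 TPM with EB and 25.2 ± 8.07 with DMSO (SD, n = 4 each), a log2 fold change of 0.48 that did not pass the test (limma adjusted p = 0.177). KEAP1 was at 77.6 ± 21.8 and 55.8 ± 11.8 TPM (SD, n = 4 each), a log2 fold change of 0.45 (limma adjusted p = 0.133). KEAP1 passed with median-ratio scaling (0.57, limma adjusted p = 0.0169) and with the replicate block (0.45, adjusted p = 0.0177), and NFE2L2 passed without EB replicate 3 (0.71, adjusted p = 0.0446). RNA levels do not report the protein or its place in the cell.

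Of 25 genes listed as targets of NRF2, 24 were tested, 13 were called higher and 1 lower (58.3% called, against 40.3% of all genes tested, of which 15.2% were higher and 25.1% lower), and their median log2 fold change was 0.51 against −0.11 over all genes. This list was chosen with results of these data known, so the count describes it and is no independent evidence. The 10 tested genes that were not called had log2 fold changes from −0.43 for UGDH to 0.51 for TXNRD1. Among these 10, GCLC was at −0.10, GCLM at −0.03 and GSR at 0.02. With the length and GC trend removed, the number of listed targets called higher was 10. HMOX1, which encodes the heme-degrading heme oxygenase, rose by 2.47 on the log2 scale (standard error 0.21, limma adjusted p = 6.6e-05), close to the value of AKR1C1. Its TPM lay between 10.9 and 23.6 with DMSO and between 93.4 and 112.3 with EB. OSGIN1, an oxidative stress-induced growth regulator, rose by 1.75, PIR, an iron-binding nuclear protein, by 1.30, and TXN, thioredoxin, by 1.10. SRXN1, sulfiredoxin, rose by 1.06, PRDX1, a peroxiredoxin, by 1.02, and NQO1, the quinone reductase often taken as a marker of NRF2 activity, by 0.83 (limma adjusted p from 0.000106 to 0.0135 for these 6 genes). In each of the 7 genes every EB library was above every DMSO library. ABCC2, an export pump for conjugates, fell by 1.10 (limma adjusted p = 0.00246), from 38.8 ± 7.45 to 17.6 ± 3.98 TPM (SD, n = 4 each). AKR1C1 thus had a larger fold change than each of these genes on the log2(TPM + 1) scale, whereas its mean TPM with EB was below that of each of the 7, the nearest being PIR at 34.5 ± 1.55 TPM (SD, n = 4).

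**Figure D5:**
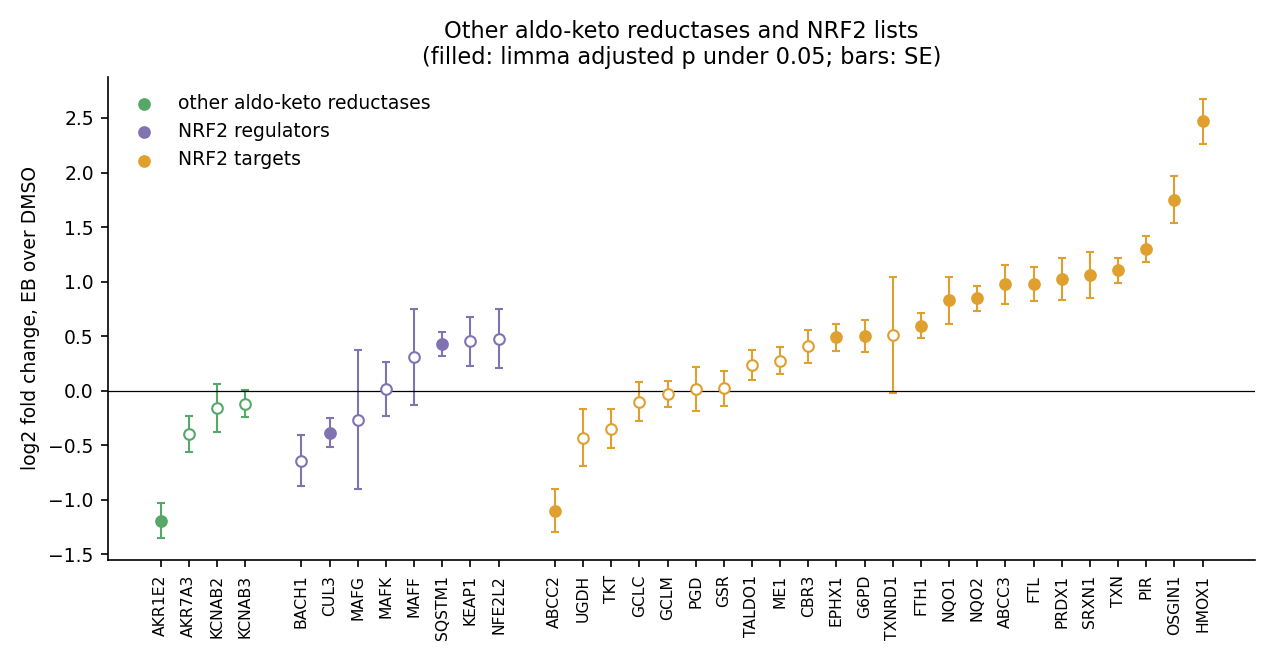
Log2 fold change of EB over DMSO for the tested genes among the other aldo-keto reductases, the NRF2 regulators and the NRF2 targets, with standard errors (filled, limma adjusted p under 0.05). The target list runs from −1.10 for ABCC2 to 2.47 for HMOX1, with 13 filled points above 0 and 1 below, and the other 2 lists hold 1 filled point above 0 and 2 below between them.

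Of 30 enzymes listed that share aldehyde and carbonyl substrates with the family, 27 were tested, 7 were called higher and 3 lower. The 37% called is near the 40.3% of all genes tested, so nothing is read from it about the list. The list had a median log2 fold change of −0.08 against −0.11 over all genes. CBR1, a carbonyl reductase of another protein family that overlaps the AKR1C enzymes in its substrates, was the one that rose most, by 1.21 (standard error 0.30, limma adjusted p = 0.0104). Its TPM went from 96.0 ± 18.5 (SD, n = 4) to 237 ± 98.4 (SD, n = 4). The dehydrogenase/reductase genes DHRS3 and DHRS7 rose by 0.68 and 0.65, DCXR, a reductase of dicarbonyls and xylulose, by 0.53, ADH5, a formaldehyde-handling alcohol dehydrogenase, by 0.50, and GLO1, the glyoxalase that detoxifies methylglyoxal, by 0.47 (limma adjusted p from 0.00664 to 0.0304). The 3 genes called lower encode aldehyde dehydrogenases, which oxidize aldehydes in place of reducing them. ALDH5A1, whose enzyme takes succinic semialdehyde as AKR7A2 does, fell by 0.92, ALDH7A1 by 0.76 and ALDH3B1 by 0.73 (limma adjusted p from 0.0124 to 0.0315). SORD, sorbitol dehydrogenase, which follows aldose reductase in the polyol pathway, was at 28.6 ± 3.12 TPM with EB and 29.2 ± 4.72 with DMSO (SD, n = 4 each), a log2 fold change of −0.02 (limma adjusted p = 0.935). Both steps of the polyol pathway therefore had overlapping groups. With the length and GC trend removed, the number of genes called higher was 1, which was CBR1, and DCXR had a log2 fold change of 0.09 (limma adjusted p = 0.647). Calls of ALDH5A1 and ALDH7A1 were lost in that setting too (−0.67 and −0.54, adjusted p = 0.0808 and 0.0763), and that of ALDH5A1 also with quantile normalization (−0.61, adjusted p = 0.0956) and without a filter (−0.92, adjusted p = 0.0668). GLO1 lost its call with quantile normalization (0.25, adjusted p = 0.102) and with mitochondrial genes removed (0.29, adjusted p = 0.0748). SORD changed sign with several settings, up to 0.20 with the length and GC trend removed, and passed the test in none. With 1 library left out, calls were lost for ADH5 (DMSO replicates 2 and 3, EB replicates 1 and 3, adjusted p = 0.0655 to 0.0857), ALDH5A1 (DMSO replicates 2 and 3, EB replicates 1, 3 and 4, adjusted p = 0.0592 to 0.0878), ALDH7A1 (DMSO replicates 2 and 3, adjusted p = 0.0547 to 0.0574) and DHRS3 (EB replicate 1, adjusted p = 0.0509).

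Of 26 genes listed for steroid and prostanoid metabolism, the pathways on which the AKR1C enzymes act, 18 were tested, 4 were called higher and 2 lower. The 33.3% called is not above the 40.3% of all genes tested, so nothing is read from it about the list. The list had a median log2 fold change of 0.20 against −0.11 over all genes. SULT2B1, a sulfotransferase of cholesterol and other sterols, rose by 0.80, HSD17B10, a mitochondrial dehydrogenase, by 0.63, HSD17B7, an enzyme of cholesterol synthesis, by 0.46, and SRD5A3, a polyprenol reductase, by 0.31 (limma adjusted p from 0.00336 to 0.0459). HSD11B2, which inactivates cortisol, fell by 1.12 (limma adjusted p = 0.0015), from 3.27 ± 0.821 to 0.966 ± 0.377 TPM (SD, n = 4 each). STS, steroid sulfatase, fell by 0.44 (limma adjusted p = 0.032). PTGS2, the inducible cyclooxygenase that makes the prostaglandin precursor of AKR1C3, was listed at 0 in all 8 libraries. With the length and GC trend removed, the number called higher in this list was 1, which was SRD5A3, and HSD17B10, HSD17B7 and SULT2B1 had log2 fold changes of 0.19, 0.13 and 0.42 (limma adjusted p = 0.38, 0.512 and 0.0583). STS was at −0.10 in that setting (limma adjusted p = 0.597) and at −0.11 with quantile normalization (adjusted p = 0.516). SRD5A3 lost its call with mitochondrial genes removed (0.13, adjusted p = 0.339). With 1 library left out, calls were lost for SRD5A3 (all libraries but DMSO replicates 1 and 4, adjusted p = 0.0816 to 0.127), STS (DMSO replicates 1 to 3, EB replicates 1 and 3, adjusted p = 0.0539 to 0.0967) and HSD17B7 (DMSO replicate 3 and EB replicate 3, adjusted p = 0.0543 and 0.0562).

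The labelled cell type was checked against its markers. Of 8 markers listed, the ductal and epithelial KRT8, KRT18, KRT19 and SOX9 were abundant, and so was VIM, a mesenchymal marker. KRT7, CDH1 and EPCAM, which are also ductal or epithelial markers, stayed below 0.5 TPM in every library. KRT8, KRT18 and KRT19 rose by 1.20, 1.49 and 1.80 with EB and SOX9 fell by 1.38 (limma adjusted p from 3.1e-05 to 0.00109). Of 8 markers of acinar, islet, immune, endothelial and fibroblast cells, 7 were listed at 0 in all libraries, and CEL was between 3.47 and 4.55 TPM in both groups. The part of the keratin and SOX9 differences in the values of the aldo-keto reductases was not tested.

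The genes whose profiles over the 8 libraries lay nearest to that of the AKR1C sum were SAT1, KLF2, DUSP5 and SLC3A2. Likeness was the root mean square difference of log2(TPM + 1) less its DMSO mean, and it was 0.18, 0.19, 0.20 and 0.22 for these genes. Their log2 fold changes were 1.99, 2.20, 2.08 and 1.93. SAT1 encodes a polyamine acetyltransferase, KLF2 and DUSP5 a transcription factor and a phosphatase of early response, and SLC3A2 the heavy chain of amino acid transporters. For AKR1B1, the gene outside AKR1C with the largest absolute fold change, the nearest were SLC39A11, SERF1A, ITGB2 and ENKD1, at 0.07, 0.08, 0.09 and 0.09. For both profiles the 8 libraries include the difference between the groups, so nearness in the AKR1C case rests largely on a fold change of like size.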

How the data were processed

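RNA from PANC-1 cells treated for 24 h with DMSO or 10 μM EB (4 libraries each) was sequenced as mRNA libraries. The authors deposited TPM, normalized within each library. The methods name trimming, mapping and counting of reads in CLC Genomics Workbench, with HISAT2 and StringTie among further tools. Both a mouse build and hg38 are named, and all identifiers are human. Columns headed C were read as DMSO and those headed H, a letter not explained in the sources used here, as EB. Read counts were not analysed here. Depth is therefore unknown for every library, and counting error could not be given.

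The members and lists were chosen with earlier results of these data known. Log2(TPM + 1) was computed from the deposited TPM (pseudocount 1), and the 11725 genes that reached 1 TPM in 4 or more libraries were tested by limma 3.58.1 in R 4.3.3 (lmFit, eBayes, no trend or block, prior degrees of freedom 3.88) with two-sided tests, adjusted by Benjamini-Hochberg over these genes. The step was tested on simulated data. The 4 libraries per group are the replicates, and no pair held identical values. Symbols and positions came from GENCODE release 44 (20148 identifiers matched, 115 did not), promoters from RefSeq (GRCh38.p14), and alignments were made with Biopython 1.88 in Python 3.11.15.

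Named were all members, the 10 other aldo-keto reductases, NFE2L2, KEAP1, NQO1, SORD and PTGS2, and of each list the genes at an adjusted p under 0.05, up to 6 in each direction, taken by the size of the log2 fold change. The 4 genes nearest in profile to the AKR1C sum and to AKR1B1 were named too. Cell type markers were given whatever their values. Alternatives were quantile normalization, median-ratio scaling, a pseudocount of 0.1, a minimum of 5 TPM, no filter, removal of mitochondrial genes, removal of the length and GC trend, an intensity trend, a replicate block, each library left out, and a threshold of 1 on the absolute log2 fold change. The coding length for AKR1C genes was added after seeing the data. Whether same-numbered DMSO and EB libraries were handled together is not stated in the sources used here. The main fit took no pairs, and a replicate block was fitted as an alternative. The share of mitochondrially encoded genes ranked the replicate numbers alike in both groups. Deviations from the group means went together in some same-numbered pairs and not in others, so pairing was not settled.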

Additional observations from a re-analysis of the deposited data

Results flagged for a closer look

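Among 82 sets of 4 libraries examined, 6 held a library whose distance from the nearest other exceeded Dixon's 95% limit for its group's range, and chance gives about 1 in 20. None of these sets belonged to AKR1C1, AKR1C2, AKR1C3, AKR1B1, AKR1A1, AKR7A2 or the AKR1C sum. In 5 of the 6 the library was DMSO replicate 4, the one with the mitochondrial share of 39.0%. SQSTM1 was at 505.1 TPM there, against 575.6 to 586.9 in the other DMSO libraries. OSGIN1 was at 12.3 TPM (others 21.7 to 22.8), SRXN1 at 31.7 TPM (56.0 to 58.4), ABCC2 at 27.7 TPM (41.5 to 43.5) and SORD at 22.1 TPM (31.0 to 31.9). The remaining library was EB replicate 4, in which ALDH3B1 was at 6.12 TPM against 8.75 to 9.16 in the other EB libraries. The part of the mitochondrial share in these values was not tested.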

How the results depend on the processing

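The AKR1C sum had a log2 fold change of 2.07, 2.0 to 2.15 with 1 library left out, 2.27 with quantile normalization, 2.64 with the length and GC trend removed and 1.85 with the coding length in that removal. Over all genes, 1785 were called higher and 2944 lower, and the split changed with the scaling to 3039 and 3080 with median-ratio scaling, 2782 and 2764 with quantile normalization, 1440 and 4840 with mitochondrial genes removed and 1226 and 2369 with the length and GC trend removed. With 1 library left out the counts were 1240 to 1824 higher and 1950 to 4218 lower, and with an absolute log2 fold change above 1 they were 290 and 762. Of the other aldo-keto reductases, 2 were lower without a filter, with mitochondrial genes removed or with the length and GC trend removed (1 to 3 with 1 library left out, 3 without DMSO replicate 4). NRF2 regulators called higher numbered 2 with median-ratio scaling, 0 with quantile normalization and 0 at the fold threshold (1 to 2 with 1 library left out), and those called lower 2, 2 with mitochondrial genes removed, 0 with the length and GC trend removed and 0 at the fold threshold (0 to 2). NRF2 targets called higher numbered 10 with the length and GC trend removed and 6 at the fold threshold. With 1 library left out they numbered 12 to 14. NRF2 targets called lower numbered 2 with quantile normalization and 3 with mitochondrial genes removed (1 to 3). Carbonyl and aldehyde enzymes called higher numbered 1 with the length and GC trend removed and 1 at the fold threshold (4 to 7), and those called lower 5 with median-ratio scaling, 6 with quantile normalization, 9 with mitochondrial genes removed and 0 at the fold threshold (1 to 11). Steroid and prostanoid enzymes called higher numbered 8 with median-ratio scaling, 1 with the length and GC trend removed and 0 at the fold threshold (2 to 5), and those called lower 0 with a TPM of at least 5, 1 with median-ratio scaling, 6 with mitochondrial genes removed and 1 at the fold threshold (1 to 5). The cause of these shifts was not tested. With the replicate block, 2231 genes were higher and 3525 lower, and the block gave 2 higher and 2 lower NRF2 regulators, 2 lower NRF2 targets and 5 lower carbonyl and aldehyde enzymes. Same-numbered libraries had correlations of their deviations of 0.18, 0.05, −0.09 and 0.28. Replicates 1 and 4 of each group correlated best with their own number, and replicates 2 and 3 did not. The mitochondrial share ranked the numbers 4, 2, 3 and 1 from high to low in both groups, with DMSO replicates 2 and 3 close at 21.1% and 21.0%. Over 539 fits of 32 named genes, 471 kept direction and call, 51 lost the call, 7 gained it and 10 changed sign, none of them in a gene called as reported. These were KCNAB2 (0.066) and KCNAB3 (0.19) with quantile normalization, and SORD with median-ratio scaling (0.094), quantile normalization (0.053), the length and GC trend removed (0.20) and 1 library left out (−0.14 to 0.029, positive without DMSO replicates 1 to 3 or EB replicates 3 or 4). Without read counts, how depth limits AKR1C2 and AKR1C3, both near 1 TPM, cannot be given.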
